A study of Mus musculus with 10 samples.

Results

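Expression of 8 complement genes was examined in muscle satellite cells (MuSCs), the stem cells of skeletal muscle, sorted from injured muscle of control and Trpm7 conditional knockout (cKO) mice. The genes were chosen by name and were C1qa, C1qb, C1qc, C3, C4b, C3ar1, C5ar1 and Serping1, and all 8 were among the 24608 gene symbols of the count table. Control mice were Trpm7+/+; Pax7CreERT2/+; Rosa26YFP and cKO mice were Trpm7flox/flox; Pax7CreERT2/+; Rosa26YFP, so that Cre, the YFP reporter and tamoxifen treatment were shared by both genotypes. Adult mice on a C57BL6 background received 5 daily tamoxifen injections, muscle was injured with cardiotoxin (CTX), and 3000 MuSCs per library were sorted 3 days after injury, with 5 libraries per genotype. Cre was driven by Pax7, so recombination was directed to MuSCs and not to the other cells of the muscle. The labels did not state whether each library came from a separate mouse. In their library names, cKO libraries 4 and 5 carried the same number with different suffixes. The p-values therefore measure the spread between these libraries, which may in part be technical.

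Complement is a cascade of plasma and tissue proteins that marks microbes, dying cells and debris for removal. C1q, built from the chains encoded by C1qa, C1qb and C1qc, recognises targets and starts the classical pathway, in which C4 and then C3 are cleaved and deposited. The small fragments released from C3 and C5 act on the receptors C3ar1 and C5ar1, and Serping1 encodes the C1 inhibitor, which holds the C1 proteases in check. In tissues, C1q is made largely by macrophages, C3 and C4 by liver, stromal and immune cells, and the receptors C3ar1 and C5ar1 are found mainly on myeloid cells.

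Total counts ranged from 914361 to 1097709 in control libraries and from 205986 to 581121 in cKO libraries, without overlap (p = 0.00794 by a two-sided exact permutation test of the totals, n = 5 per genotype). A single count was therefore worth more in a cKO library, and low values were less precise there. Values are in CPM, counts brought to a common library size by TMM, a normalization that assumes most genes do not change, and they stem from 3′ ends tagged with molecular identifiers. Levels of different genes are not compared with each other. Trpm7 itself read 66.6, 68.2, 90.1, 83.3 and 76.4 CPM in controls and 70.2, 101, 84.0, 46.4 and 55.2 CPM in cKO libraries, with a log2 fold change of -0.09 (SE 0.20, adjusted p = 0.723). A 3′ tag outside the deleted part does not report the deletion, and the position of the floxed segment was not given in the sources used here, so this does not check the labels.

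The C1q genes sit side by side on chromosome 4 (GRCm38), all on the minus strand, within 18675 bases from 136880129 to 136898803 and with no other annotated gene between them. C1qb (ENSMUSG00000036905) occupied 136880129 to 136886187, C1qc (ENSMUSG00000036896) 136889804 to 136893065 and C1qa (ENSMUSG00000036887) 136895917 to 136898803, each with 3 exons in its longest coding transcript. C3 (ENSMUSG00000024164, chromosome 17, 57203970 to 57228136) and C4b (ENSMUSG00000073418, chromosome 17, 34728380 to 34743882) each had 41 exons. C3ar1 (ENSMUSG00000040552) was on chromosome 6 from 122847138 to 122856161, C5ar1 (ENSMUSG00000049130) on chromosome 7 from 16246743 to 16259540 and Serping1 (ENSMUSG00000023224) on chromosome 2 from 84765387 to 84775444. Since the reads come from 3′ ends, the last 500 transcript bases of each gene were searched in all other annotated transcripts for shared 31-base words. Of the tail of C4b, 90.2% was shared with its near-identical copy C4a, so C4b counts could include or lose reads of C4a, while the other 7 genes shared none.

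RefSeq promoter sequence (GRCm38.p6) was matched for 5 of the 8 genes. The 250 bases before the start of C1qb and C1qc are shown because these neighbouring genes moved together, and those of C3 because it had the highest fold change of the set. Capitals in C1qb and C1qc mark matches to GAGGAA, a core of PU.1-type sites, on either strand, and capitals in C3 mark matches to TTNNGNAA, a C/EBP-type site, on either strand.
C1qb, chr4:136886201-136886450, minus strand: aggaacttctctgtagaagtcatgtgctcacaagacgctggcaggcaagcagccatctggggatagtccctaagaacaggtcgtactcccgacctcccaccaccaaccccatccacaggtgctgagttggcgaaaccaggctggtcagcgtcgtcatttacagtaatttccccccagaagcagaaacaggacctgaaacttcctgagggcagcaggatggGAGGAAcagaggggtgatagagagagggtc
C1qc, chr4:136892915-136893164, minus strand: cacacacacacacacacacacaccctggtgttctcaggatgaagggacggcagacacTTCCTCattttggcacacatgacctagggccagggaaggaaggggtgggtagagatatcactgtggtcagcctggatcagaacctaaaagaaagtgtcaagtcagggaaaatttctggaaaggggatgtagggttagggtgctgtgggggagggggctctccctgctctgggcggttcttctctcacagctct
C3, chr17:57228137-57228386, minus strand: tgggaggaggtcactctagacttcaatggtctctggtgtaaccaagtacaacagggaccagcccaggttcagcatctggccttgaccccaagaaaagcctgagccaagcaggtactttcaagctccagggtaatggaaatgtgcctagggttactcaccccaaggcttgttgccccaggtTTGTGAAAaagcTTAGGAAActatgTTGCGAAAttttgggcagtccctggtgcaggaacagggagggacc
The GAGGAA match began 30 bases before the start of C1qb and 193 bases before that of C1qc, and the 3 matches in C3 began 70, 58 and 45 bases before its start. The same C/EBP-type letters occurred once in C1qc and once in C5ar1 and were absent from the windows of C1qb and C3ar1. The GAGGAA letters were absent from the windows of C3, C3ar1 and C5ar1. Starts are those of RefSeq, and the GENCODE model of C1qc extends to 136893065, inside the window shown. Of 32851 RefSeq promoters of the same length, 23.3% held GAGGAA and 36.8% held TTNNGNAA, so these matches are common and are given as a description of the sequence.

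All 8 genes read higher in every cKO library than in any control library. Of the 8 genes, 6 passed the filter on low counts and all 6 rose in cKO, with a log2 fold change above 1.5 and an adjusted p below 0.05, whereas 8.49% of the 7753 genes tested rose by the same rule. Non-overlapping values with cKO above control were seen in 16.6% of the genes tested. Of these 6 genes, C1qa, C3ar1 and C3 reached the filter of 13.4 CPM mainly through the cKO libraries, with 1, 1 and 0 of 5 control libraries above it, so a difference was built into their selection and their count is not evidence beyond the single values. C1qb, C1qc and Serping1 were above the filter in all 10 libraries.

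**Figure D1:**
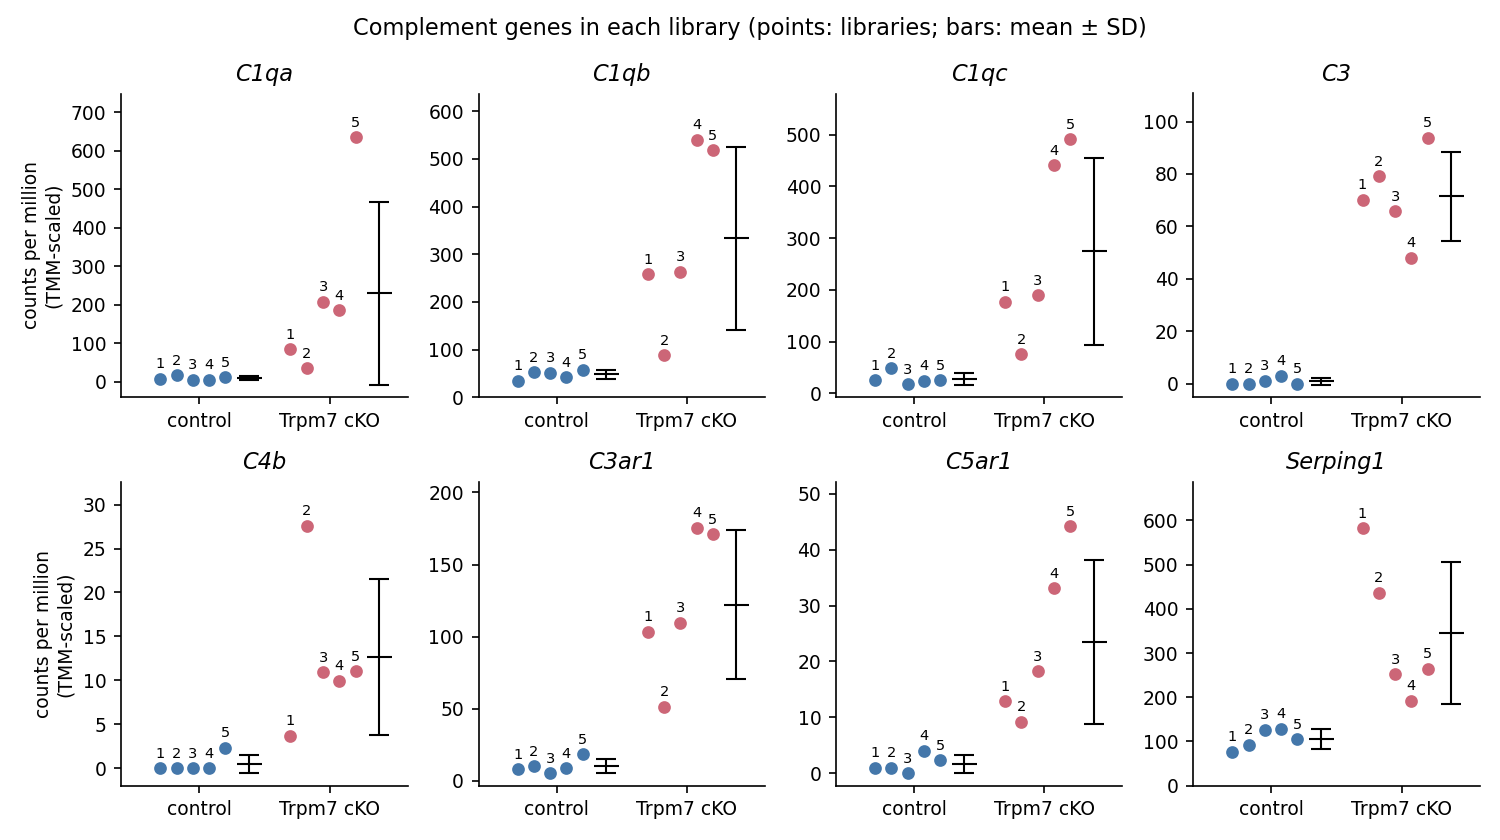
TMM-scaled CPM of the 8 complement genes in each library (points numbered by replicate, blue control, red Trpm7 cKO), with the mean ± SD of 5 libraries beside each group and a separate axis for each gene. Every cKO point lies above every control point, C1qb, C1qc and C3ar1 are highest in cKO libraries 4 and 5, and Serping1 is highest in cKO libraries 1 and 2.

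Among the recognition genes, C1qb read 34.8, 52.7, 51.5, 42.2 and 57.9 CPM in controls and 259, 88.3, 263, 540 and 519 CPM in cKO libraries 1 to 5. The controls were close together, whereas the cKO libraries were spread widely, with library 2 low and libraries 4 and 5 high. C1qb averaged 47.8 ± 9.21 CPM in controls and 334 ± 192 CPM in cKO (SD, n = 5 each), a log2 fold change of 2.78 (SE 0.43, adjusted p = 0.000324). C1qc read 25.9, 48.5, 17.2, 24.1 and 25.5 CPM in controls and 177, 75.5, 190, 441 and 491 CPM in cKO. The order of the cKO libraries was close to that of C1qb, and control library 2 stood above the other controls. The log2 fold change of C1qc was 3.22 (SE 0.53, adjusted p = 0.000717).

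C1qa read 7.96, 17.6, 5.36, 6.02 and 12.7 CPM in controls and 85.0, 35.0, 208, 186 and 635 CPM in cKO. Library 5 of the cKO group held by far the highest value, from 115 counts in the smallest library of the series. The log2 fold change of C1qa was 4.33 (SE 0.86, adjusted p = 0.00297), and it was 3.62 without that library. The change in C1qa had the widest error of the 6 genes tested.

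The subunits did not keep one ratio. C1qa made up 7.25% to 14.8% of the summed C1q counts in controls (mean 11.0% ± 3.20, SD, n = 5) and 15.9% to 38.6% in cKO (24.0% ± 10.4). The groups did not overlap, but the high share came from cKO library 3, at 31.5% of 181 counts (95% exact binomial interval 24.8% to 38.8%), and cKO library 5, at 38.6% of 298 counts (33.0% to 44.4%). The remaining cKO libraries lay between 15.9% and 17.6%, close above the highest control at 14.8% of 115 counts (8.85% to 22.6%). The share of C1qb was 56.6% ± 9.60 in controls and 42.3% ± 7.01 in cKO with overlapping ranges, and that of C1qc was 32.3% ± 7.42 and 33.7% ± 4.31. No test was made of the shares. The intervals cover counting error only.

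C3, the component on which all complement pathways converge, was nearly absent from controls. Its counts were 0, 0, 1, 3 and 0 in controls and 38, 43, 18, 29 and 17 in cKO, or 70.2, 79.1, 65.8, 48.1 and 93.8 CPM in cKO. C3 averaged 71.4 ± 16.9 CPM in cKO (SD, n = 5), and libraries 4 and 5, both high for C1qb and C1qc, held its lowest and highest values. Pooled over libraries, 145 counts against 4 gave a ratio of 80.6 (95% exact Poisson interval 30.8 to 300, counting error only), and the fitted log2 fold change was 6.09 (SE 0.44, adjusted p = 5.12e-09).

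C4b, whose product is cleaved just before C3 in the classical pathway, had counts of 0, 0, 0, 0 and 2 in controls and 2, 15, 3, 6 and 2 in cKO. Of the 28 cKO counts, 15 thus came from library 2, the library with the lowest C1q values. C4b did not pass the filter on low counts, and its ratio of pooled rates was 31.1 (7.85 to 270, 28 against 2 counts). By an exact permutation test over the 10 libraries its two-sided p was 0.00794, the smallest that 5 against 5 can give. Only 3 counts in all were assigned to C4a, each of them in cKO libraries.

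Both anaphylatoxin receptors were higher in cKO. C3ar1, the receptor of C3a, read 7.96, 10.3, 5.36, 9.03 and 18.5 CPM in controls and 103, 51.5, 110, 176 and 171 CPM in cKO. It was again lowest in cKO library 2 and highest in libraries 4 and 5, and its log2 fold change was 3.53 (SE 0.35, adjusted p = 4.71e-07). C5ar1, the receptor of C5a, had counts of 1, 1, 0, 4 and 2 in controls and 7, 5, 5, 20 and 8 in cKO, and did not pass the filter. Its level was 1.67 ± 1.55 CPM in controls and 23.5 ± 14.7 CPM in cKO (SD, n = 5 each), with a ratio of pooled rates of 12.5 (5.84 to 30.7) and an exact permutation p of 0.00794.

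Serping1, the inhibitor, had the smallest change of the 6 genes tested. It read 76.6, 92.9, 127, 128 and 105 CPM in controls and 582, 436, 252, 192 and 265 CPM in cKO. The lowest cKO library was above the highest control, but the order of the cKO libraries was unlike that of the C1q genes, with libraries 1 and 2 on top and library 4 at the bottom. Serping1 averaged 106 ± 22.2 CPM in controls and 345 ± 160 CPM in cKO, a log2 fold change of 1.73 (SE 0.27, adjusted p = 8.55e-05). Without cKO library 1 it was 1.43, and without libraries 1 and 2, a choice made after seeing the data, it was 1.08 (adjusted p = 0.000112), both under the fold threshold. Counted per sorted cell, without correction for library size, the log2 fold change of Serping1 was 0.64 (adjusted p = 0.115), while those of C1qb, C1qa and C3 were 1.59, 2.88 and 4.98.

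**Figure D2:**
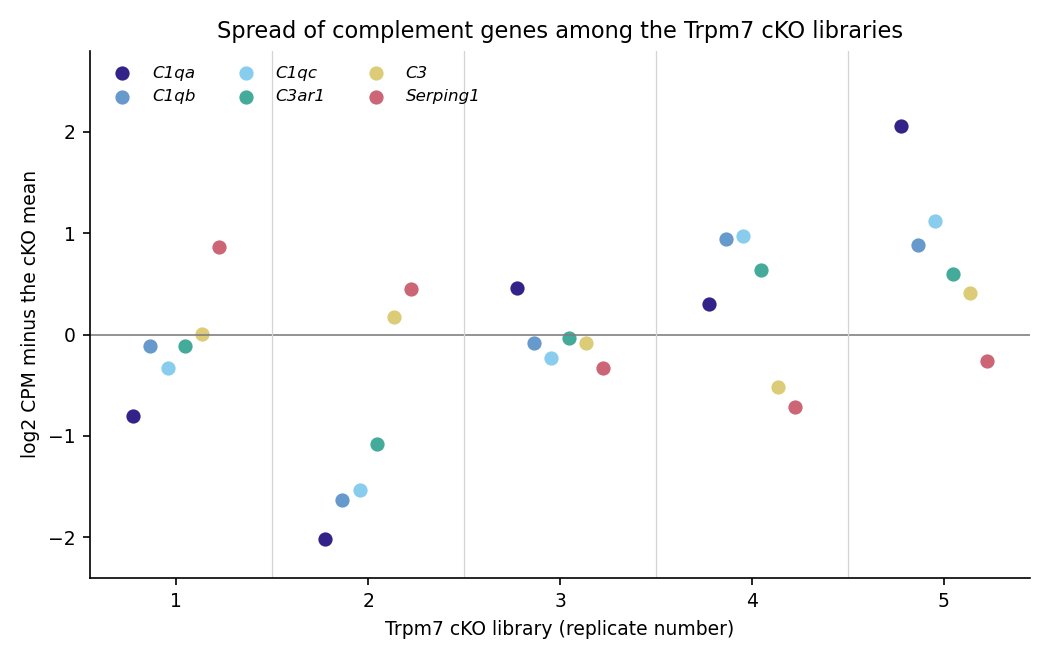
Deviation of log2 CPM from the mean of the 5 Trpm7 cKO libraries for the 6 genes that passed the count filter, by library (colours mark genes, the grey line marks the cKO mean). C1qa, C1qb, C1qc and C3ar1 lie lowest in library 2 and mostly above the mean in libraries 4 and 5, while Serping1 lies above the mean in libraries 1 and 2 and below it in the others.

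The genes did not all vary together among libraries of the same genotype. Taken as deviations of log2 CPM from the genotype mean over the 10 libraries, C1qa, C1qb and C1qc correlated with each other at Pearson's r of 0.82 to 0.88, and C3ar1 correlated with them at 0.79 to 0.85. Serping1 ran the other way, at -0.51 to -0.65 with the C1q genes, and C3 was between, at -0.11 to -0.25 with the C1q genes and 0.50 with Serping1. These correlations are descriptions, since the genes share each library's depth and scaling and, C3 apart, the cKO libraries carry most of the spread. C3 deviated from -0.30 to 0.73 in controls and from -0.51 to 0.41 in cKO. Its control counts were only 0 to 3.

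Of 6704 other genes compared in this way, those most like C1qb were Ctsb (r = 0.98), which encodes a lysosomal protease, Ifi204 (0.97) and Gpnmb (0.97), a gene of phagocytic macrophages. C1qa was most like Exoc3 (0.98), Plekho1 (0.97) and Ctsd (0.96), another lysosomal protease, and C1qc was most like the inflammatory mediators Cxcl2 (0.95) and Il1b (0.95) and the kinase gene Cdk9 (0.94). For C3ar1 they were the chemokine Ccl9 (0.96), the scavenger receptor Msr1 (0.95) and the leukocyte actin-bundling gene Lcp1 (0.94). The genes most like Serping1 were Megf10 (0.97), Spry1 (0.97) and Heyl (0.96), all 3 of them on the list of MuSC markers used here, and Spry1 and Heyl are known from quiescent MuSCs. C3 was most like Steap2 (0.95), Lztr1 (0.89) and Chd9 (0.87), in part on control counts of 0 to 3. As the highest of 6704 values over 10 libraries, all these r are high in part by selection and were not tested. Exoc3, Plekho1, Cdk9, Steap2, Lztr1 and Heyl had an adjusted p above 0.05 between genotypes.

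Markers of other cell types moved with genotype as well. The study's supplement shows a sort on YFP for these cells, and its sorting method, described for uninjured muscle, also gates out cells positive for CD45, CD31 and Sca-1, the products of Ptprc, Pecam1 and Ly6a, which would remove leukocytes, endothelial and many fibroadipogenic cells. Ptprc, Pecam1 and Ly6a were counted in cKO libraries, at means of 56.7, 64.0 and 146 CPM. These genes were also counted in controls, where Pecam1 and Ly6a averaged 5.29 and 28.4 CPM and Ptprc had the range given below. Ly6a overlapped between genotypes, at 17.6 to 49.2 CPM in controls and 42.3 to 353 CPM in cKO. Pecam1 did not overlap, at 0 to 17.4 CPM in controls and 29.2 to 143 CPM in cKO. The summed level of 20 macrophage and monocyte markers ranged from 325 to 570 CPM in controls and from 1406 to 5483 CPM in cKO, and all 17 that could be tested rose, against 8.49% of all genes. Only 3 of the 17 were above the count filter in all controls and 8 were above it in none, so for most of them a difference was built into their selection. Among them the macrophage genes Adgre1, Csf1r and Cd68 averaged 4.85, 9.78 and 5.87 CPM in controls and 52.8, 75.0 and 63.9 CPM in cKO. The leukocyte gene Ptprc ranged from 4.02 to 15.5 CPM in controls and from 25.8 to 97.8 CPM in cKO. None of the 20 was at 0 in all controls. In a bulk library, more cells of a type and more of its RNA per cell cannot be told apart.

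Taken again as deviations from the genotype mean, the C1q genes followed the mean log2 CPM of the 17 tested markers of this list. The r was 0.83, 0.94 and 0.88 for C1qa, C1qb and C1qc and 0.86 for C3ar1. It was -0.47 for C3 and -0.67 for Serping1. Differences between the genotypes do not enter these r. Per 100 CPM of macrophage markers, the summed C1q level was 19.9 ± 4.69 CPM in controls and 21.7 ± 8.89 CPM in cKO, with overlapping ranges of 16.5 to 27.1 and 14.1 to 36.7. C3ar1 per 100 CPM of the same markers was higher in cKO, at 2.30 ± 0.79 in controls and 3.45 ± 0.29 in cKO. Its ranges of 1.21 to 3.25 and 3.15 to 3.81 overlapped only where control library 5 exceeded cKO libraries 1 and 4. A covariate for the marker level summed log2 CPM over the 17 tested markers, 8 of which were above the filter in no control library. With it in the fit, the log2 fold changes turned to -1.79 for C1qa (adjusted p = 0.648), -1.51 for C1qb (0.134) and -1.37 for C1qc (0.288). That of C3ar1 shrank to 0.45 (0.769), and none of these was past the threshold. In the same fit C3 stayed at 6.88 (adjusted p = 0.000151) and Serping1 was 3.54 (0.0032). The marker levels of the genotypes did not overlap, so the covariate and genotype cannot be fully told apart in this fit.

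**Figure D3:**
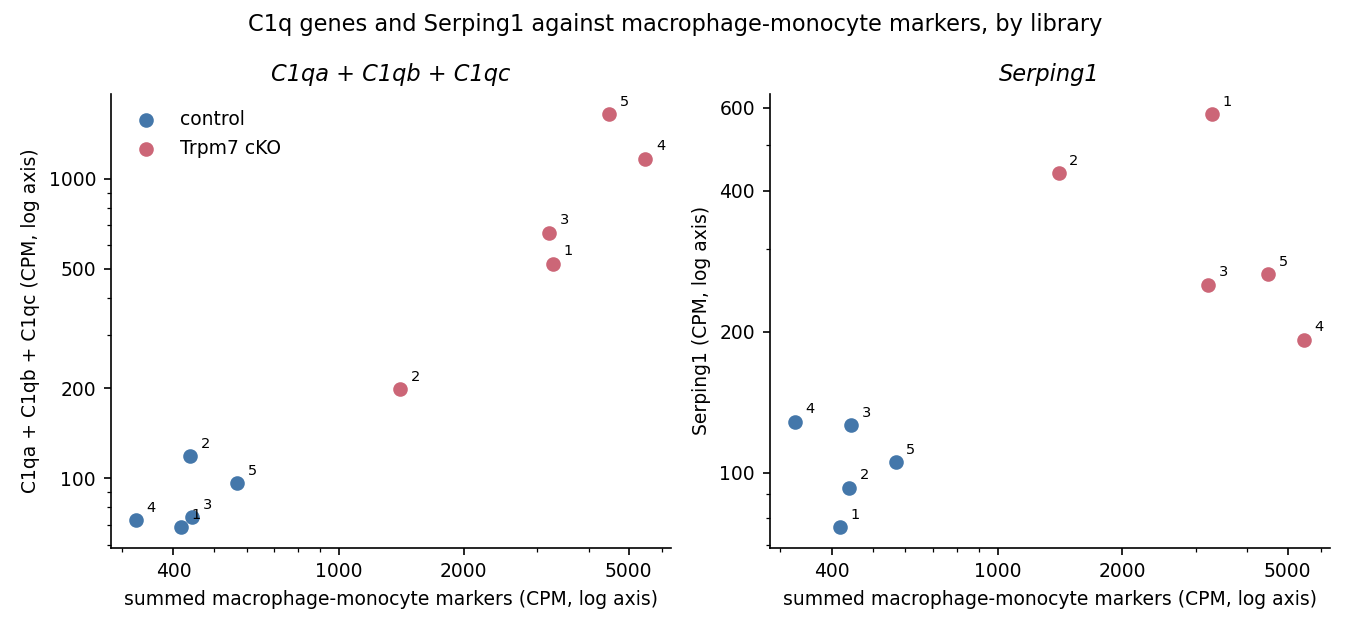
Summed CPM of C1qa, C1qb and C1qc (left) and CPM of Serping1 (right) against the summed CPM of 20 macrophage and monocyte markers, 1 point per library numbered by replicate, on log axes (blue control, red Trpm7 cKO). The C1q genes climb with the markers from 325 to 5483 CPM, whereas among the cKO libraries Serping1 is lower where the markers are highest.

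Other marker lists were examined in the same way. Fibroadipogenic and fibroblast markers summed to 2456 to 4180 CPM in controls and 2543 to 5255 CPM in cKO, overlapping, while 7 of the 9 tested rose against 8.49% of all genes. Among them Dpt went from a mean of 10.3 to 170 CPM and passed the filter through cKO libraries alone, whereas Col1a2 was lower in cKO (1767 and 1092 CPM, log2 fold change -0.69, adjusted p = 0.00771). Fibroadipogenic cells and fibroblasts can express Serping1 and C3. As deviations from the genotype mean, these genes correlated with the tested genes of that list at r of 0.18 and 0.33. C1qa, C1qb, C1qc and C3ar1 correlated with it more strongly, at 0.37, 0.67, 0.50 and 0.51. Per 100 CPM of the list Serping1 was 2.54 to 3.85 in controls and 4.11 to 12.6 in cKO. By the same measure C3 was 0 to 0.072 and 1.03 to 2.59. With that list as a covariate only C3 stayed past the threshold, at 6.01 (adjusted p = 0.00176). This covariate summed log2 CPM over the 9 tested markers, 7 of which rose, so it and genotype cannot be fully told apart. The SE of C1qb went from 0.43 to 0.88 and that of Serping1 from 0.27 to 0.65. Endothelial markers summed to 6.43 to 79.9 CPM in controls and 134 to 762 CPM in cKO, and mural markers to 411 to 663 and 892 to 1272 CPM. Neutrophil markers were low but also higher in cKO, at 4.97 to 12.9 CPM in controls and 11.0 to 49.7 CPM in cKO. S100a9 averaged 0.44 and 5.49 CPM, while Camp was at 0 throughout. Lymphocyte markers summed to 0 to 2.01 CPM in controls and 0 to 14.8 CPM in cKO. MuSC markers were present in all libraries, at 3285 to 3839 CPM in controls and 3274 to 5506 CPM in cKO, and of the 16 tested 9 were higher and 3 lower by adjusted p alone, against 24.6% of all genes higher and 24.1% lower by that rule. Pax7 was among the higher ones, at means of 206 CPM in controls and 474 CPM in cKO (log2 fold change 1.19, adjusted p = 2.4e-05). As deviations from the genotype mean, Serping1 followed the tested genes of this list (r = 0.95). C1qa, C1qb and C1qc ran against them (-0.53, -0.56 and -0.65). The part of each of these cell types in the complement values was not tested.

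Of 49 further complement genes listed by role, 36 were in the table and 9 passed the filter. In cKO 6 of the 9 rose and 1 fell, against 8.49% and 3.53% of all genes tested, with a median log2 fold change of 2.50 over the 9 and -0.01 over all genes tested. Most of the list was too low to test, and C1ra, Colec12 and Itgb2 were above the filter in no control library. Those that passed only through the cKO libraries had to differ. Their fitted changes and the count are therefore descriptions.

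**Figure D4:**
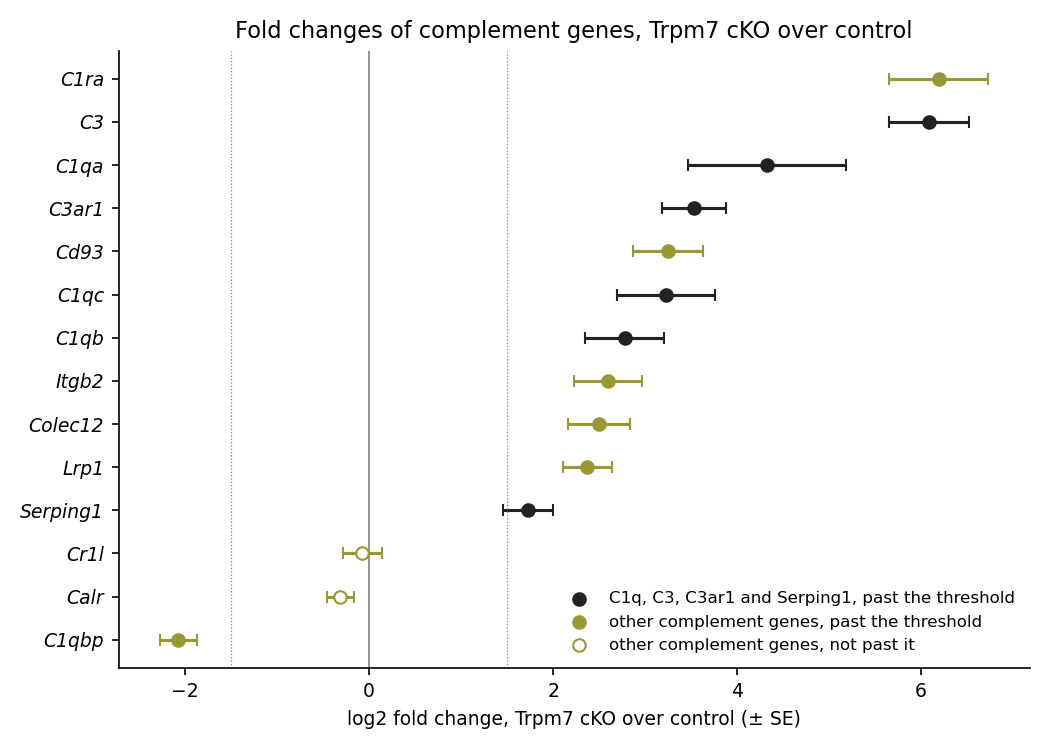
Fitted log2 fold changes, Trpm7 cKO over control, with standard errors for complement genes that passed the count filter (black for the 6 of the 8-gene set, olive for 8 of the 9 others, open for those not past the threshold, dotted lines at -1.5 and 1.5). C1ra and C3 lie above 6, Serping1 just above 1.5, and C1qbp alone lies below -1.5.

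Of the proteases that C1q activates, C1ra had 1 count over all controls and 60 in cKO. The ratio was 133 (95% exact Poisson interval 23.1 to 5358, counting error only) and the fitted log2 fold change 6.19 (SE 0.54, adjusted p = 3.70e-08). C1s1, its partner, had 1 count in controls and 33 in cKO and did not pass the filter (ratio 73.4, 12.3 to 2986). The scavenger collectin Colec12 went from 6.56 ± 1.85 to 39.3 ± 15.2 CPM (log2 fold change 2.50). C1s1 was not counted in every cKO library, so its 2 groups overlapped.

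Among receptors, Cd93, found on endothelial and myeloid cells, rose from 14.8 ± 4.61 to 146 ± 80.5 CPM (log2 fold change 3.25), and Itgb2, the shared chain of complement receptors 3 and 4, from 6.79 ± 2.05 to 40.2 ± 21.9 CPM (2.60). Lrp1, a scavenger receptor that can act with Calr in C1q-dependent uptake, rose from 31.7 ± 12.5 to 172 ± 58.4 CPM (2.37). Itgam, which pairs with Itgb2 in complement receptor 3, did not pass the filter and read 2.78 ± 1.69 and 46.0 ± 31.6 CPM, without overlap. C1qbp, a mainly mitochondrial protein first described as binding C1q, was the one gene of the list that fell, from 1462 ± 261 to 339 ± 114 CPM (log2 fold change -2.07, SE 0.20, adjusted p = 1.47e-07). Calr, a chaperone that can bind C1q, read 603 ± 33.2 and 488 ± 101 CPM and did not pass the test (log2 fold change -0.31, adjusted p = 0.0801).

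Among regulators, the membrane protein Cr1l read 45.8 ± 3.32 CPM in controls and 43.8 ± 14.9 CPM in cKO and did not pass the test (log2 fold change -0.07, adjusted p = 0.80). Below the filter, Vtn read 4.09 ± 2.42 and 30.7 ± 12.1 CPM, without overlap, and Clu 3.04 ± 3.49 and 13.3 ± 6.58 CPM. The membrane inhibitors Cd55, Cd59a and Cd46 were also below it, each with overlap. They averaged 8.11, 6.08 and 1.36 CPM in controls and 6.18, 15.6 and 3.23 CPM in cKO. Of the terminal components that form the lytic pore, C9 had no count in any library and C8g had 2 counts in all. Hc, which encodes C5, had 0 counts in controls and 9 in cKO, and properdin (Cfp) read 1.88 ± 1.76 and 17.5 ± 7.22 CPM.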

How the data were processed

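MuSCs were profiled by CEL-Seq2, a 3′-end method with unique molecular identifiers. The authors deposited 1 table of raw read counts per gene symbol; their processing notes name UMI-tools 1.1.4, Trim Galore 0.6.10, HISAT2 2.2.1, featureCounts 2.0.6, DESeq2 1.30.1 and GRCm38. Whether counting used strand was not given in the sources used here. Of 24620 entries, symbols listed more than once were reduced to 24608. Genes were filtered (filterByExpr, minimum count 10), scaled by TMM and tested over all 10 libraries with edgeR 4.0.16 in R 4.3.3 (quasi-likelihood F-test, Benjamini-Hochberg over 7753 genes). A gene was called at an adjusted p below 0.05 and an absolute log2 fold change above 1.5. DESeq2 1.42.0, other scalings and filters, marker covariates, a replicate block and leaving out libraries were alternatives. Positions and transcripts came from GENCODE (GRCm38). All 8 genes were described, with up to 3 further genes per role by size of change and the 3 genes most like each tested gene. C1qbp, Calr and genes below the filter were named after their values were seen. Ly6a, Dpt and Col1a2 were added to the markers first chosen for naming. The values of 1 further complement gene are not reported here. The genes and lists were chosen with earlier results of these data known. No 2 libraries of a genotype agreed within counting noise.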

Additional observations from a re-analysis of the deposited data

Results flagged for a closer look

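Within a genotype, 3 values stood apart from the other 4 libraries by Dixon's criterion, among 26 groups of libraries examined, of which chance gives about 1.3. C1qa was 635 CPM in cKO library 5. C1qc was 48.5 CPM in control library 2. C4b was 2.32 CPM in control library 5, the only control library with a C4b count.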

How the results depend on the processing

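Of the 8 complement genes, 6 were called, against 2 with the macrophage marker covariate and 1 with the fibroadipogenic marker covariate. With the macrophage covariate the log2 fold changes of C1qa, C1qb and C1qc reversed to -1.79, -1.51 and -1.37. Over all alternatives the adjusted p reached 0.673 for C1qa, 0.824 for C1qb, 0.678 for C1qc, 0.769 for C3ar1 and 0.288 for Serping1, from lows of 5.25e-10, 8.19e-13, 5.55e-09, 3.78e-38 and 1.82e-16. C3 stayed called in all 23 alternatives that could test it (log2 fold change 4.98 to 7.25, adjusted p 3.07e-42 to 0.00176). It was above the main count filter in 0 of 5 control libraries, so a difference was built into its selection. Its calls under that filter are therefore not evidence beyond the single values. Serping1 also dropped under the fold threshold when scaled on MuSC markers (1.33). Of the other complement genes 6 were called higher, against 13 with no filter, 3 after thinning to the smallest library, 2 and 1 with the macrophage and fibroadipogenic covariates and 3 per sorted cell, and C1qbp, the 1 gene called lower, was not called with the macrophage covariate (0 lower). The cause was not tested, except that the filter and thinning change how many genes can be tested. Leaving out each library in turn kept 5 of the 6 tested genes called 10 of 10 times and Serping1 9 times. With cKO libraries 4 and 5 summed, 6 were called, and C1qa, C1qb and C1qc had log2 fold changes of 3.94, 2.60 and 3.01. With both left out, 6 were called, and these values were 3.26, 2.03 and 2.30. Over all genes 658 were higher and 274 lower, against 1813 and 623 with no filter, 294 and 148 after thinning, 296 and 85 with the macrophage covariate, 236 and 150 with the fibroadipogenic one, 449 and 541 when scaled on MuSC markers (median log2 shift of all genes -0.33) and 203 and 2461 per sorted cell (-1.15). Libraries with the same replicate number deviated together little or not at all (r of -0.12 to 0.18), and only control library 5 was most like its own number. Such values cannot show whether the numbers mark pairs. With a replicate block, 6 of the 8 genes were still called, with 645 genes higher and 294 lower. Counts per sorted cell and leaving out 2 cKO libraries were added after seeing the data. Depth limits C4b, C5ar1, C3 in controls and most of the cascade.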
